A study of Homo sapiens with 6 samples.

Results

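Sprouty and SPRED proteins are inhibitors of signalling from growth factor receptors through RAS to the kinase ERK. The genes described here are SPRY1, SPRY2, SPRY4, SPRED1, SPRED2 and RASA1, chosen as a family together with RASA1, and every array probe set annotated to 1 of them was taken. The annotation used here named 10 probe sets for 5 of the 6 genes, out of 41091 probe sets that name 1 of 19775 genes, and it named none for RASA1, which is not analysed here. A further probe set designed on a SPRY4 transcript is annotated to other genes and was not used.

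The study compared SK-Hep1 cells treated with anti-miR-21 with mock-treated SK-Hep1 cells, in 3 arrays each. SK-Hep1 is a long-established human cell line derived from an adenocarcinoma of the liver. Cells were plated 24 hours ahead, transfected by lipid at an anti-miR-21 dose of 20 nM or without it (the design text gives PBS as the mock compound), and collected 16 hours later. The labels give total RNA but cite an Argonaute immunoprecipitation procedure for the harvest, so which RNA fraction was hybridised is not settled by the sources used here. The mock cells received no control oligonucleotide, so the effect of carrying any oligonucleotide and that of blocking miR-21 cannot be told apart. Mature miR-21 itself is not measured by these arrays. The RNA is from whole cultures, so fewer cells expressing a gene and less RNA per cell cannot be told apart.

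RAS proteins relay signals from receptor tyrosine kinases to the RAF, MEK and ERK kinases. Sprouty genes are switched on by ERK and their products dampen the cascade that induced them, a negative feedback loop, whereas SPRED proteins hold RAS in check at the membrane by bringing in the GTPase activating protein neurofibromin. RASA1 encodes p120 RasGAP, which switches RAS off directly. SPRY1, SPRY2, SPRED1 and RASA1 have been published as targets of miR-21. That made their transcripts candidates for a rise in total RNA when miR-21 is blocked. No direction is set here for RNA bound to Argonaute, the other fraction that the labels leave possible.

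The sequence at the root of that comparison is the seed of miR-21, bases 2 to 8 counted from the 5′ end, which pairs with sites in target messenger RNAs. The mature strands that carry this seed are shown here with the seed in capitals, since another microRNA of the same seed could pair with the same sites. Among 2545 mature human microRNAs in the RefSeq table (GRCh38.p14), 2 have it.
hsa-miR-21-5p: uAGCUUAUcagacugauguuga
hsa-miR-590-5p: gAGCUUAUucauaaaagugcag
The first lies at chr17:59841273-59841294 on the plus strand and the second at chr7:74191213-74191234 on the plus strand. Outside the seed the strands are identical at 1 of 15 positions. In the miR-21 hairpin the mature strand, in capitals below, covers bases 8 to 29 of 72.
MIR21 hairpin: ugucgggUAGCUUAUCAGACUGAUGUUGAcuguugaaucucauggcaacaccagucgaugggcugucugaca
The sequence of the anti-miR-21 oligonucleotide and the untranslated regions of the 6 genes were not used here, so no target site is shown.

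The deposited values are log2 expression from GCRMA, an Affymetrix method that corrects background by probe sequence and gives 1 value per probe set. Array medians were 3.03 to 3.16 with anti-miR-21 and 3.02 to 3.11 with mock treatment. Between 22277 and 22591 probe sets per array reached a log2 value of 4. On the first principal component, with 50.4% of the variance, anti-miR-21 replicates 2 and 3 lay at 20.1 and 19.6, anti-miR-21 replicate 1 at 3.51, and the mock arrays between -19.95 and -7.25. Differences between the 3' and 5' probe sets of ACTB, a measure of RNA integrity, were 0.589 to 0.606 with anti-miR-21 and 0.491 to 0.628 with mock treatment. Of the hepatocyte markers, ALB and TTR were at or below 2.97 on every array, and 3 of 9 measured markers passed the filter described next, the brightest being SERPINA1 with a mean of 11.9 and AFP with 4.22. Of 10 endothelial markers 3 passed, with PECAM1 and CDH5 at or below 3.06. The brightest of these 3 were ROBO4, between 7.90 and 8.62 with means of 8.52 in anti-miR-21 and 8.05 in mock arrays, and EGFL7, with 7.29 and 7.48 (limma, BH-adjusted p = 0.131 and 0.247). Of the mesenchymal markers 9 of 10 passed, led by VIM and FN1. EPCAM, an epithelial surface marker, lay between 6.99 and 7.71, CDH1 was at or below 2.42, and 5 of 10 epithelial markers passed, led by KRT18 and KRT8. Of 8 measured leukocyte markers CD14 alone passed, with a mean of 5.30, followed by PTPRC with 3.21, and no marker in these lists was called.

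Probe sets with a mean of at least 4 over the 6 arrays were tested with limma, 7 of the 10 Sprouty and SPRED probe sets among them. No Sprouty or SPRED probe set was called higher or lower at an adjusted p of 0.05 (limma with Benjamini-Hochberg, BH, adjustment over 22408 probe sets), where 2.17% of all probe sets tested were called, 1.10% higher and 1.07% lower. At an unadjusted p under 0.05 the count was 2 of 7, SPRY1 and SPRY2, both with higher values in anti-miR-21 cells, where 17.8% of all probe sets passed and 8.06% were higher. Log2 fold changes below run from anti-miR-21 over mock, with their standard error (SE) and a 95% interval that is not adjusted for the number of probe sets. Levels of different probe sets are not compared, because each binds its target with its own strength. The median log2 fold change was 0.079 over the 7 and -0.0027 over all probe sets tested, with 4 of 7 positive against 49.0% of all.

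**Figure D1:**
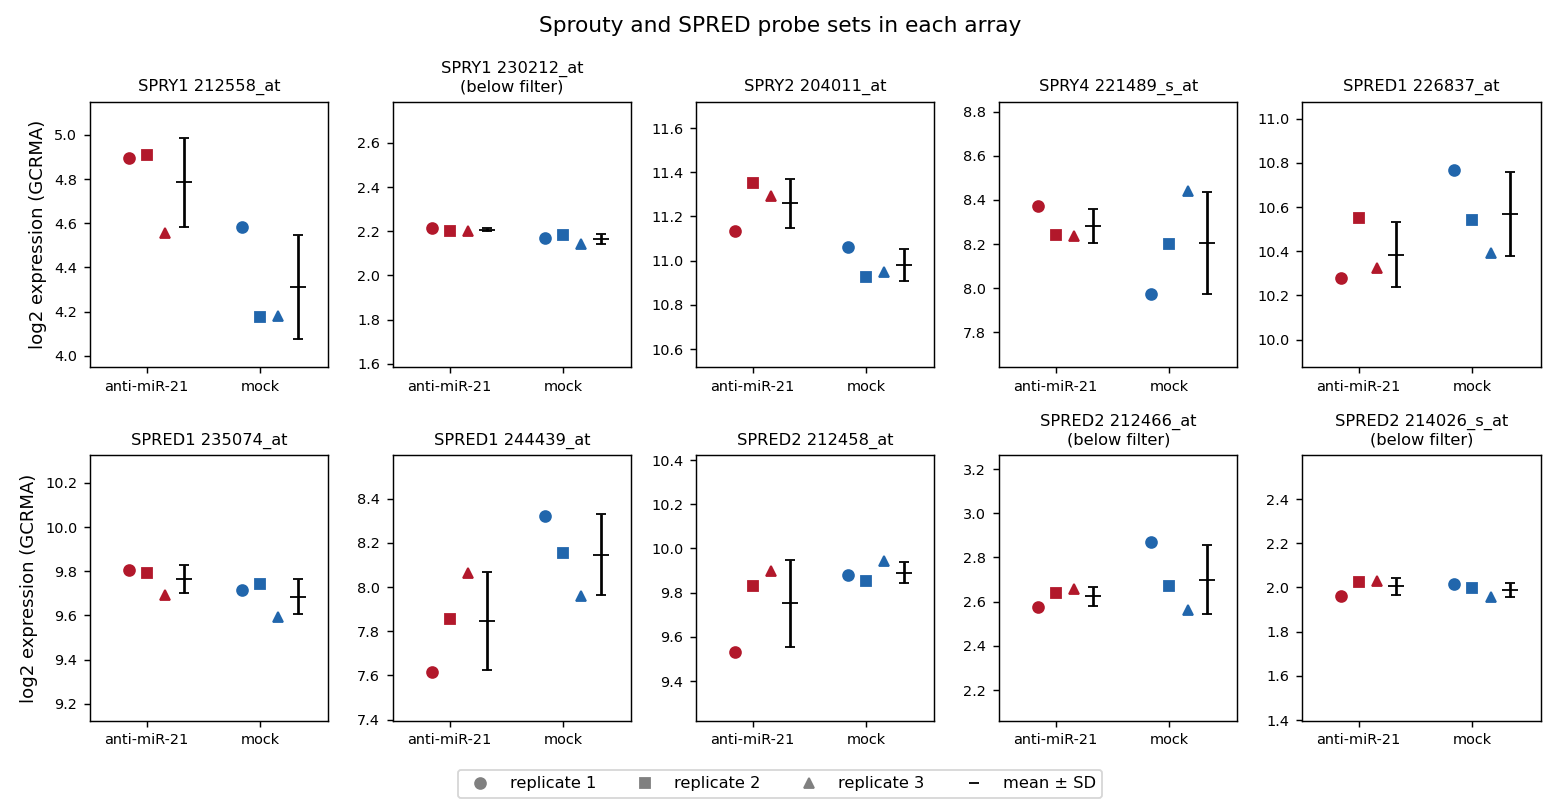
Log2 expression (GCRMA) of the 10 Sprouty and SPRED probe sets, 1 panel each, with anti-miR-21 arrays left and mock arrays right. Symbols mark replicate numbers, black bars the mean ± SD, and every panel spans the same height. SPRY2 has all 3 anti-miR-21 arrays above the mock arrays, and most other panels overlap.

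SPRY2 encodes the Sprouty that binds the ubiquitin ligase CBL and the adaptor GRB2. Its probe set 204011_at had log2 values of 11.14, 11.35 and 11.29 in the anti-miR-21 arrays, against 11.06, 10.93 and 10.95 in the mock arrays. The groups did not overlap, with anti-miR-21 replicate 1 and mock replicate 1 nearest to each other, as was so for 24.0% of all probe sets tested. The means were 11.26 ± 0.11 in anti-miR-21 cells and 10.98 ± 0.07 in mock cells (SD, n = 3 each). The log2 fold change was 0.28 ± 0.0731 SE, a 1.21-fold difference with a 95% interval of 0.11 to 0.45 (limma, BH-adjusted p = 0.116). It lay between 0.24 and 0.34 with 1 array left out, and over the 13 alternatives the adjusted p ran from 0.0672 to 0.336. A larger absolute change was seen in 9.72% of all probe sets tested.

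SPRY1 encodes a Sprouty known for restraining receptor signalling in the developing kidney of the mouse. Its brighter probe set, 212558_at, had log2 values of 4.90, 4.91 and 4.55 in the anti-miR-21 arrays, against 4.58, 4.17 and 4.18 in the mock arrays. Anti-miR-21 replicate 3 lay just under mock replicate 1, so the groups overlapped, and all 6 values were close to the filter at 4. The log2 fold change was 0.47 ± 0.145 SE with a 95% interval of 0.13 to 0.82, and the adjusted p over the alternatives that kept the probe set ran from 0.0727 to 0.413 (limma, BH-adjusted p = 0.161 with all 6 arrays). A larger absolute change was seen in 3.17% of all probe sets. The second SPRY1 probe set, 230212_at, ranged from 2.20 to 2.22 with anti-miR-21 and from 2.14 to 2.18 with mock treatment, below the filter. The SPRY1 change therefore rests on a single probe set at the dim end of the scale, where GCRMA pulls values towards a common low level.

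SPRY4 encodes the third Sprouty measured, also a feedback inhibitor of receptor signalling. The probe set 221489_s_at, whose suffix marks a design that can match more than 1 transcript, had log2 values of 8.37, 8.24 and 8.24 in the anti-miR-21 arrays, against 7.98, 8.20 and 8.44 in the mock arrays. The 3 anti-miR-21 values lay inside the range of the mock arrays, whose SD was 0.23 against 0.077 in anti-miR-21 arrays. The log2 fold change was 0.079 ± 0.117 SE, with a 95% interval of -0.20 to 0.36 (limma, BH-adjusted p = 0.769). It was -0.036 without mock replicate 1, the lowest array, and 0.20 without mock replicate 3, the highest.

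SPRED1, the gene mutated in Legius syndrome, was measured by 3 probe sets that did not point the same way. Probe set 226837_at had log2 values of 10.28, 10.55 and 10.32 in anti-miR-21 arrays, against 10.77, 10.54 and 10.39 in mock arrays. Its groups overlapped, with mock replicate 1 the highest array, and its log2 fold change was -0.18 ± 0.115 SE with a 95% interval of -0.46 to 0.089 (limma, BH-adjusted p = 0.454). Probe set 235074_at had values of 9.81, 9.79 and 9.69 in anti-miR-21 arrays, against 9.71, 9.74 and 9.59 in mock arrays. Those groups also overlapped, in the opposite order, and the log2 fold change was 0.080 ± 0.0627 SE with a 95% interval of -0.069 to 0.23 (limma, BH-adjusted p = 0.548). Probe set 244439_at had values of 7.62, 7.86 and 8.06 in anti-miR-21 arrays, against 8.32, 8.16 and 7.96 in mock arrays. Here anti-miR-21 replicate 3 lay above mock replicate 3, and the log2 fold change of -0.30 ± 0.135 SE had a 95% interval of -0.62 to 0.022 (limma, BH-adjusted p = 0.309).

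The SPRED1 probe sets were also tested against each other, each as its difference per array from the mean of the other 2. Probe set 235074_at had a change that exceeded that of the others by 0.32 ± 0.115 SE, which did not pass (limma, BH-adjusted p = 0.324 over 14103 probe sets of genes with at least 2), and neither of the others passed. Over all probe sets in that test 1.03% were called. With the 3 averaged, the SPRED1 log2 fold change was -0.14 ± 0.0843 SE (limma, BH-adjusted p = 0.43).

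SPRED2 encodes a close relative of SPRED1 with the same inhibitory role. Probe set 212458_at had log2 values of 9.53, 9.83 and 9.90 in anti-miR-21 arrays, against 9.88, 9.85 and 9.94 in mock arrays. Anti-miR-21 replicate 1 was the lowest array by a wide margin, and the other values interleaved. The log2 fold change was -0.14 ± 0.0993 SE, with a 95% interval of -0.38 to 0.097 (limma, BH-adjusted p = 0.513), and it was -0.028 without anti-miR-21 replicate 1. The other SPRED2 probe sets were below the filter. Probe set 212466_at ranged from 2.57 to 2.66 in anti-miR-21 arrays and from 2.56 to 2.87 in mock arrays, and 214026_s_at from 1.96 to 2.03 in anti-miR-21 arrays and from 1.96 to 2.02 in mock arrays.

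**Figure D2:**
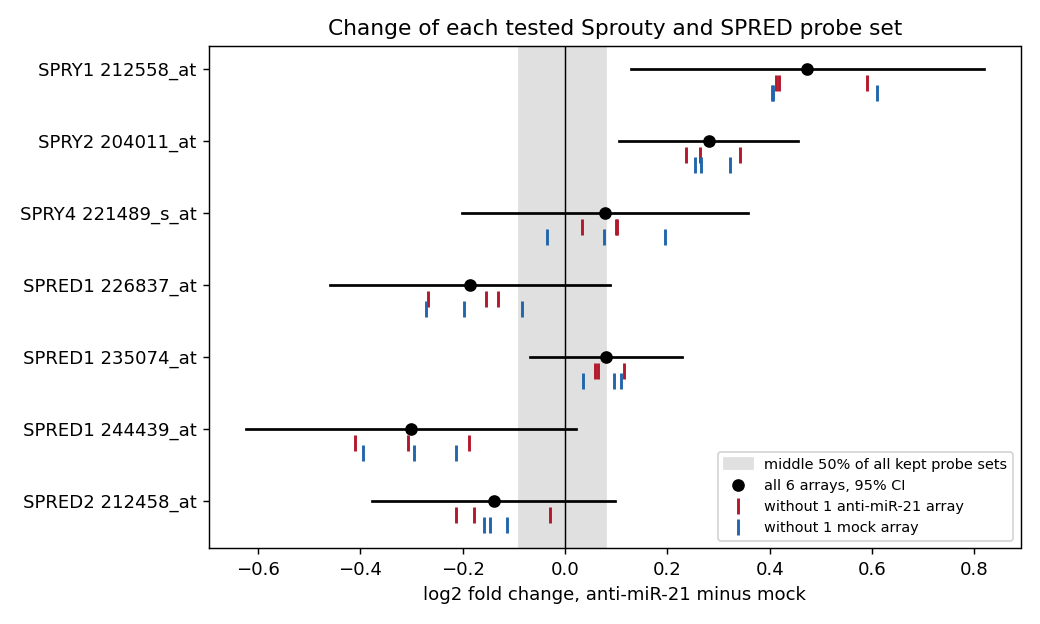
Log2 fold change (anti-miR-21 minus mock) of the 7 tested Sprouty and SPRED probe sets. Black points and lines give the value and its 95% interval from all 6 arrays, red and blue ticks the value with 1 anti-miR-21 or 1 mock array left out, and the grey band the middle 50% of all probe sets tested, from -0.089 to 0.080. The SPRY1 and SPRY2 intervals lie above 0, and the other 5 include 0.

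The intervals bound the changes that 3 arrays a group leave possible. For SPRY2 the upper bound was 0.45 and for SPRY1 0.82, while those of SPRY4 and the SPRED1 and SPRED2 probe sets were at most 0.36. The 3 lower bounds furthest from 0 were those of SPRED1 244439_at, SPRED1 226837_at and SPRED2 212458_at, at -0.62, -0.46 and -0.38. The standard errors of these 7 probe sets had a median of 0.115, against 0.0712 over all probe sets tested. No Sprouty or SPRED probe set was called under any of the alternatives, including each array left out in turn. For SPRED3 the log2 fold change was 0.057 ± 0.0866 SE (limma, BH-adjusted p = 0.774), and SPRY3 lay between 2.32 and 2.38 on all 6 arrays, below the filter.

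The genes whose pattern over the 6 arrays was nearest to each member were found by the root mean square distance between log2 values after subtracting each probe set's mean, among 10847 other genes. Nearest to SPRY2, whose own root mean square deviation was 0.160, were PRDM10 at a distance of 0.0246 and STAT3, a transcription factor of cytokine signalling, at 0.0277. Their log2 fold changes were 0.29 and 0.28 (limma, BH-adjusted p = 0.116 and 0.112). Nearest to SPRY1 were LRRC57 at 0.0548 and ATE1, an arginyltransferase, at 0.0771, against an own deviation of 0.297. RGP1 and DELE1 were nearest to SPRY4 at 0.0252 and 0.0318, and NCLN and EPOR, the erythropoietin receptor, to SPRED2 at 0.0133 and 0.0237. SIRT1, a deacetylase, and CTH, an enzyme of cysteine synthesis, were nearest to the brightest SPRED1 probe set, at 0.0409 and 0.0428. None of these 10 genes was called, with limma, BH-adjusted p from 0.086 to 0.758. They were picked for values like those of members that were not called, so this outcome follows from the choice. Whether such close matches exceed those of unrelated genes was not tested.

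The pathway around these inhibitors was described with 7 gene lists, 108 genes in all, of which 97 were named on the array and 82 passed the filter, each represented by its brightest probe set. Of the 82, 3 rose and 2 fell (limma, BH-adjusted p under 0.05), or 3.66% higher and 2.44% lower, where 2.13% of the 10848 genes tested were called, 0.913% higher and 1.22% lower. The median log2 fold change was 0.0093 over the 82 and -0.018 over all genes. The lists were chosen with earlier results of these data known, so these shares are no independent comparison with all genes.

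The genes called higher were all receptor ligands, 3 of 11 tested, with none called lower and 8 of the 11 positive. FGF1, an acidic fibroblast growth factor that acts through FGF receptors, had log2 values of 7.95, 8.14 and 7.75 in anti-miR-21 arrays, against 7.02, 7.28 and 6.63 in mock arrays. The groups stood well apart, with a log2 fold change of 0.97 ± 0.174 SE or 1.96-fold (limma, BH-adjusted p = 0.0468). The other FGF1 probe sets, 205117_at and 208240_s_at, had log2 fold changes of 0.69 and 0.75 (limma, BH-adjusted p = 0.0189 and 0.0182), and with all 3 averaged the adjusted p was 0.00466. TGFA, a ligand of the EGF receptor, had values of 6.67, 6.75 and 6.58 in anti-miR-21 arrays, against 6.23, 6.23 and 6.04 in mock arrays, a log2 fold change of 0.50 ± 0.0759 SE (limma, BH-adjusted p = 0.0276). PDGFA, a platelet-derived growth factor chain, rose 1.22-fold, with 8.42, 8.46 and 8.48 in anti-miR-21 arrays against 8.13, 8.18 and 8.18 in mock arrays (limma, BH-adjusted p = 0.0356). The list median was 0.185.

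The genes called lower were 1 of 14 receptor tyrosine kinases and 1 of 13 genes of the RAS to ERK cascade. None was called higher in either list, where 4 of 14 and 5 of 13 were positive. KIT, the receptor of stem cell factor, had log2 values of 8.24, 8.16 and 8.08 in anti-miR-21 arrays, against 8.47, 8.62 and 8.70 in mock arrays, a log2 fold change of -0.44 ± 0.0765 SE (limma, BH-adjusted p = 0.0424). MRAS, a RAS-related GTPase that acts with SHOC2 on RAF, had values of 7.27, 7.10 and 7.20 in anti-miR-21 arrays, against 7.67, 7.78 and 8.05 in mock arrays. Its log2 fold change was -0.64 ± 0.105 SE (limma, BH-adjusted p = 0.0338), and a dimmer MRAS probe set near the filter had -0.15 (limma, BH-adjusted p = 0.553). The list medians were -0.060 for the receptors and -0.0067 for the cascade.

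None of these 5 calls held throughout when each array was left out in turn. Calls over all probe sets also varied, from 96 to 572 with 1 array left out against 486 with all 6. FGF1, refitted by its brightest probe set only, did not pass with any 1 array left out (limma, BH-adjusted p = 0.0702 to 0.164). Its log2 fold change then ran from 0.80 to 1.12. PDGFA did not pass with any 1 array left out either (0.0545 to 0.156). TGFA, KIT and MRAS passed without mock replicate 1 (limma, BH-adjusted p = 0.0491, 0.0381 and 0.0381) and with none of the other 5 arrays left out, when the lowest values were 0.0578, 0.0523 and 0.0538. Without the filter, calls were also lost for FGF1 (0.111), TGFA (0.0502), KIT and MRAS (0.0763 each), and quantile normalization ended those of FGF1 (0.0541) and KIT (0.062). KIT missed the threshold with median centring (0.0537) and PDGFA with trend and robust eBayes (0.0538). Their signs were the same under all 13 alternatives.

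No gene passed in the lists nearest to the Sprouty and SPRED proteins in function. Among 3 RAS GTPase activating proteins tested, the log2 fold change of RASA2 was 0.47 ± 0.106 SE (limma, BH-adjusted p = 0.0853, and 0.0362 without mock replicate 1) and that of RASA3 -0.10 (limma, BH-adjusted p = 0.535). Among 21 partners of these proteins, CBLB, a ubiquitin ligase of receptors, had -0.59 (limma, BH-adjusted p = 0.0698, and 0.0466 with the filter at 6), and MKNK2, a kinase activated by ERK, had 0.27 (limma, BH-adjusted p = 0.112, and 0.0314 with its probe sets averaged). The partners' median was -0.0073, with 10 of 21 positive, where 43.3% of all genes tested were. At an unadjusted p under 0.05 these lists held 1 of 3 and 4 of 21 genes, beside 18.1% of all genes tested.

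Sprouty genes belong to the transcriptional output of ERK, the genes switched on when the cascade is active. None of 19 tested genes in the list of other such genes and feedback regulators was called by limma, with 7 at an unadjusted p under 0.05 (18.1% of all genes tested), 13 positive (43.3% of all) and a median of 0.070. EGR1, an immediate early transcription factor, had log2 values of 9.08, 9.27 and 9.30 in anti-miR-21 arrays, against 8.88, 8.66 and 8.50 in mock arrays (log2 fold change 0.54, limma, BH-adjusted p = 0.0652). EPHA4, an ephrin receptor, had a log2 fold change of -0.45 (limma, BH-adjusted p = 0.0829). Named after their values were seen, DUSP6, the phosphatase that inactivates ERK, had 0.038 ± 0.0904 SE, and the ETS factors ETV1, ETV4 and ETV5 had -0.16 ± 0.0656, 0.070 ± 0.059 and 0.027 ± 0.0658 (SE). Of these, ETV1 had log2 values of 9.05, 8.98 and 8.97 in anti-miR-21 arrays, against 9.28, 9.14 and 9.08 in mock arrays, without overlap and without passing (limma, BH-adjusted p = 0.259). EGR1 passed with the filter at 6 (limma, BH-adjusted p = 0.0428), without mock replicate 1 (0.0407) and as the average of its probe sets (0.0394). Of the other genes in the list, 2 passed under 1 alternative each and were named for it after their values were seen. HMGA2, an architectural chromatin protein, had -0.20 ± 0.0579 SE by its brightest probe set (limma, BH-adjusted p = 0.145) and -0.29 as the average of its 5 probe sets (0.045). FOSL1, an AP-1 transcription factor, had 0.22 ± 0.122 SE (limma, BH-adjusted p = 0.396) and 0.37 without anti-miR-21 replicate 1 (0.0497). Also named after their values were seen, ERRFI1, MYC and IER3 had 0.26 ± 0.0884, 0.21 ± 0.071 and 0.17 ± 0.0562 (SE). Their groups did not overlap, and none passed (limma, BH-adjusted p = 0.203, 0.196 and 0.179). Of the 7 genes at an unadjusted p under 0.05, these and EGR1 were above 0, and ETV1, EPHA4 and HMGA2 below.

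**Figure D3:**
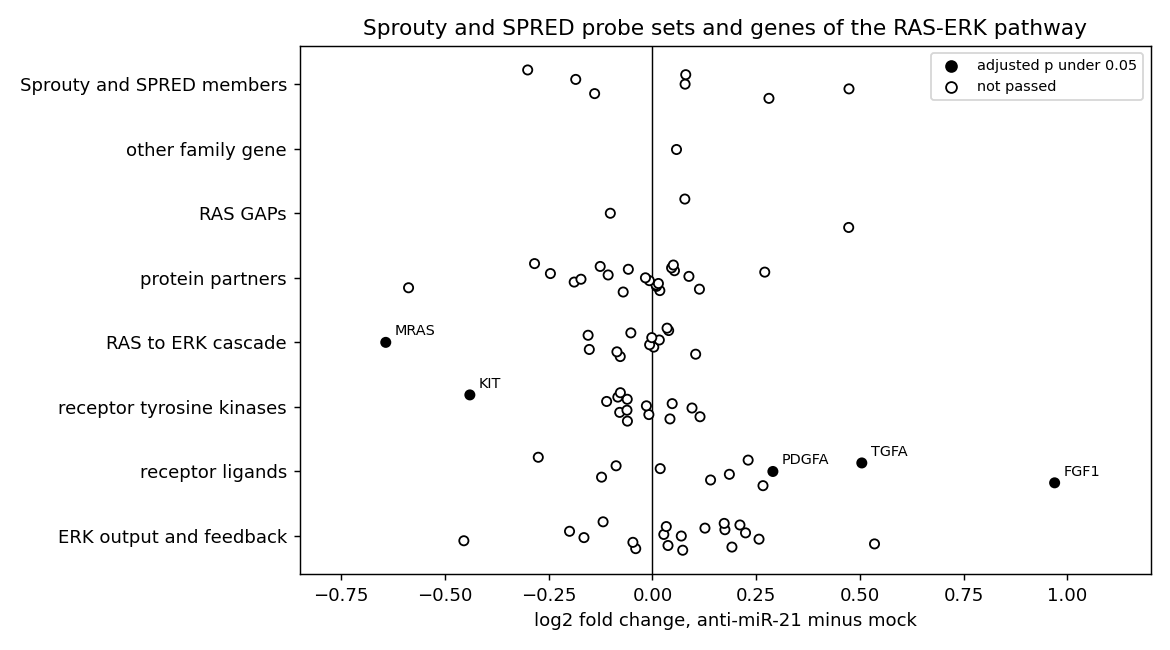
Log2 fold change (anti-miR-21 minus mock) of the 7 Sprouty and SPRED probe sets in the top line and of the 82 tested pathway genes in 7 lists below, 1 point each. Filled points passed an adjusted p of 0.05 and are named. FGF1, TGFA and PDGFA lie to the right, KIT and MRAS to the left, and no Sprouty or SPRED probe set is filled.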

How the data were processed

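Expression was measured on 6 single-colour Affymetrix arrays, 1 per sample, with replicates numbered in the titles and called biological. Whether cultures were separate in time is not stated, so p-values speak of the spread between these arrays. Per the submitters' processing notes the values come from GCRMA, whose version is not given in the sources read here, and the deposited table holds log2 expression of 54675 probe sets. No scanner file was used here. The small number of arrays limits the precision.

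Gene names came from the platform annotation, with symbols checked by Entrez identifier against RefSeq (GRCh38.p14). Of 54613 non-control probe sets 41091 named 1 gene, 1801 several and 11721 none, and genes were named only from the first. Values were used as deposited. Probe sets with a mean of at least 4 over the 6 arrays (22408) entered a two-sided fit (lmFit and eBayes of limma 3.58.1, R 4.3.3) of 3 anti-miR-21 against 3 mock arrays without covariates, with Benjamini-Hochberg (BH) adjustment and a threshold of 0.05. A pathway gene took the values of its brightest kept probe set. The fits were also run on simulated data with planted changes larger than those of the tested Sprouty and SPRED probe sets. That run therefore does not speak to the detection of changes as small as theirs.

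The members and lists were chosen with earlier results of these data known. The text names all member probe sets, every called gene of a pathway list or else the 2 with the smallest p, the brightest 2 markers of a list, and the 2 genes of nearest pattern for each member; others are marked, except ALB, TTR, PECAM1, CDH5, EPCAM and CDH1, given as defining markers. Alternatives were no filter, a filter at 6, median centring, quantile normalization, trend with robust eBayes, the replicate number as a block, averaged probe sets and each array left out in turn.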

Additional observations from a re-analysis of the deposited data

How the results depend on the processing

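The count of Sprouty and SPRED probe sets called stayed at 0 under all 13 alternatives, as did that of SPRED1 probe sets apart from the others of the gene under the 12 that apply. Signs held in all alternatives for 6 of the 7 probe sets; SPRY4 ran from -0.036 without mock replicate 1 to 0.20 without mock replicate 3. SPRY1 and SPRED1 244439_at have 12 alternatives, the first because it is below a filter at 6 and the second because averaging merges it, as it does 235074_at. Over all probe sets, 486 were called, 91 with the replicate block and 96 to 572 with 1 array left out. Leaving out mock replicate 2 gave 97 and mock replicate 3 gave 185; leaving out the second or the third anti-miR-21 array gave 106 or 96. Probe sets called higher numbered 247, against 158 without the filter. Pathway genes called numbered 5, against 1 without the filter (PDGFA), 3 with quantile normalization, 1 with the replicate block (FGF1), 8 with probe sets averaged and 0 to 5 with 1 array left out. The cause of these changes was not tested. The titles share replicate numbers, but same-numbered arrays did not deviate together (correlations of -0.361, -0.266 and -0.00187). Of 6 arrays, 0 correlated best with their own number. With 3 arrays a group, these values cannot tell whether same-numbered cultures were handled together. Centring or quantile normalization left the median log2 fold change of all probe sets at -0.0044 and -0.0059. The dim SPRY1 values and the number of arrays limit what can be detected.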

Other observations

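Some genes of the pathway lists had probe sets beyond their brightest, and these were named after their values were seen. MKNK2, the kinase that phosphorylates the translation factor eIF4E, had a dimmer probe set, 223199_at, with log2 values of 8.12, 8.33 and 8.64 in anti-miR-21 cells, against 7.66, 7.53 and 7.63 in mock cells. The groups stood apart and this probe set rose by 0.76 ± 0.127 SE on the log2 scale (limma, BH-adjusted p = 0.0376). With both probe sets averaged MKNK2 had 0.51 (limma, BH-adjusted p = 0.0314). HMGA2, an architectural chromatin protein, had 5 probe sets, and the dimmer 1558682_at had log2 values of 8.42, 8.39 and 8.46 in anti-miR-21 cells, against 9.09, 8.90 and 8.89 in mock cells. It fell by 0.53 ± 0.0673 SE on the log2 scale (limma, BH-adjusted p = 0.017). Probe set 1558683_a_at had -0.66 ± 0.123 SE and did not pass (limma, BH-adjusted p = 0.0522), the brightest had -0.20, and 1561633_at and 1567224_at had -0.14 and 0.061 (limma, BH-adjusted p = 0.417 and 0.901). RASA2, a GTPase activating protein of RAS, had 3 probe sets with log2 fold changes of 0.47, 0.41 and 0.34 (limma, BH-adjusted p = 0.0853, 0.171 and 0.300), and none passed.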
